A study of Mus musculus with 12 samples.

Results

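The 10 genes described here encode a glucose transporter, the 3 hexokinases, both of the more abundant phosphofructokinases, the bifunctional regulator PFKFB3, and an aldolase, an enolase and a lactate dehydrogenase subunit. They were taken by symbol (Slc2a1, Hk1, Hk2, Hk3, Pfkl, Pfkp, Pfkfb3, Aldoa, Eno1 and Ldha) from tables with 23847 rows for 23361 gene symbols, and each symbol matched 1 row. All 10 reached at least 1 FPKM (fragments scaled to transcript length and to the mapped fragments of the library) in at least 1 sample, as did 11191 rows in all. The samples were poly-A RNA-seq libraries of wild-type mouse bone marrow-derived macrophages (BMDMs), cells grown out of the marrow of mice aged 8 to 12 weeks over 6 days with L929 supernatant, a source of the macrophage growth factor MCSF. There were 4 groups of 3 replicates, all differentiated in this way: control cells with neither agent, cells given IL-4 (20 ng/ml, 24 h), cells given LPS (100 ng/ml, 3 h), and cells given IL-4 for 24 h and then LPS for 3 h (IL-4+LPS). The LPS dose is that of the labels, and the methods of the study state it in another unit. The comparisons ask how prior IL-4 alters the LPS response of macrophages, which was the question of the experiment. The replicates were individual animals from more than one independent experiment, and which replicate belonged to which experiment was not given. The study counts 3 individual animals, and whether this is in all or per group was not stated. If it is in all, each animal supplied all 4 groups, since replicates of a group were separate animals. The fit used for the calls below did not pair samples, and values with a replicate block are given at the end. A p-value here measures the spread between these samples.

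Glycolysis splits glucose into pyruvate in the cytosol. Glucose enters through transporters such as GLUT1 and is trapped by hexokinases as glucose 6-phosphate. Phosphofructokinase makes the committed step to fructose 1,6-bisphosphate and is activated by fructose 2,6-bisphosphate, whose level the PFKFB enzymes set. Lactate dehydrogenase turns pyruvate into lactate and regenerates NAD+. Macrophages given LPS are known for raised glucose uptake and lactate release, and IL-4-polarized macrophages also use glucose, in part to feed mitochondrial respiration. HIF1A is a known activator of many glycolytic genes, and STAT6 is the transcription factor that IL-4 activates.

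The promoters of 6 of the genes are shown because their RNAs gave the patterns the results turn on. Slc2a1, Hk2, Pfkfb3 and Pfkl had their highest level with LPS alone, Pfkp its highest level with both agents, and Ldha its highest level with IL-4 alone. Each is the 250 bases before the transcription start nearest to the start of the gene in the files, 5′ to 3′ on the gene's strand, from RefSeq on GRCm38.p6. All 10 genes matched the RefSeq promoter table. Capitals mark matches on either strand to ACGTG, TTCNNNNGAA (a STAT6 motif) or GGGCGG (a GC box), and adjoining matches run together. ACGTG is a form of the core of a hypoxia response element, and its GCGTG form was not searched.
Slc2a1 (chr4:119108495-119108744, + strand): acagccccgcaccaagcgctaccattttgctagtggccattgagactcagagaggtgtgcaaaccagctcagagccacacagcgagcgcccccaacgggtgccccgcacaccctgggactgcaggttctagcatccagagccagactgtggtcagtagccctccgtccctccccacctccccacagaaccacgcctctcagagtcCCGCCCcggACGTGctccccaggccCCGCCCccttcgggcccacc
Hk2 (chr6:82774455-82774704, - strand): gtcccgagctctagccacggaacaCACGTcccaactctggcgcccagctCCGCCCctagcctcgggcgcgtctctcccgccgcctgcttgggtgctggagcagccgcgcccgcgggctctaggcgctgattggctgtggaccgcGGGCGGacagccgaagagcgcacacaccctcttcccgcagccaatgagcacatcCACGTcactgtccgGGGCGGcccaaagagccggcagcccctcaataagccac
Pfkfb3 (chr2:11553930-11554179, - strand): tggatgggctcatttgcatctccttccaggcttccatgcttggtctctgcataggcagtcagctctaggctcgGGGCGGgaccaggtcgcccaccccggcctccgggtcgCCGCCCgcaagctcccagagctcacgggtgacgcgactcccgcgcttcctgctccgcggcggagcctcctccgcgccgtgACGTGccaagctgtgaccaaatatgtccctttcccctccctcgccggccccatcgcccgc
Pfkl (chr10:78009808-78010057, - strand): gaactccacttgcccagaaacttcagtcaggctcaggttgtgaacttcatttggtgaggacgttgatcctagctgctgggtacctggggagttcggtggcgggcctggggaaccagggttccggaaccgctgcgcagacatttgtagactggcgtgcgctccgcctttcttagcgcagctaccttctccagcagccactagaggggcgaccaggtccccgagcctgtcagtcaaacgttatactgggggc
Pfkp (chr13:6648772-6649021, - strand): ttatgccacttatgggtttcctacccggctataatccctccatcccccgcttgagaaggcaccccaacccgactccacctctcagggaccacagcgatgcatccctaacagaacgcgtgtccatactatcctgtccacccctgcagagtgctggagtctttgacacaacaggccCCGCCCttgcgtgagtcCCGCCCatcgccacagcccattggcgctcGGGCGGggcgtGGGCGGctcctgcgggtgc
Ldha (chr7:46845554-46845803, + strand): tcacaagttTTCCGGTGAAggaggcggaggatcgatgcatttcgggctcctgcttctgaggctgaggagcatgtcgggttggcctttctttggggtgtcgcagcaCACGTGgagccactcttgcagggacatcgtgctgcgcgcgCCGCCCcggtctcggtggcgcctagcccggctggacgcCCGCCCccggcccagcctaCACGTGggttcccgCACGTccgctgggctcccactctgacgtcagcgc

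ACGTG was present in the promoters of 5 of the 10 genes (Slc2a1, Hk2, Hk3, Pfkfb3 and Ldha), against 16.6% of the 32807 promoters of that length. Of those 5 genes, Slc2a1, Hk2 and Pfkfb3 were highest with LPS alone, and Hk3 and Ldha with IL-4 alone. Pfkl, which was also highest with LPS alone, held no match to any motif searched. The STAT6 motif was present in Hk3 and Ldha, against 5.85% of promoters, and neither match overlapped another motif. GGGCGG was present in 6 genes (Slc2a1, Hk2, Pfkfb3, Pfkp, Eno1 and Ldha), against 32.7% of promoters, and these 6 promoters held 62.8 to 71.2% G and C, against a median of 52.4% over all promoters. GGGNNNTTCC, an NF-kB motif, and TGANTCA, an AP-1 motif, matched none of the 10 promoters and 4.65% and 6.75% of all promoters. Pfkl and Pfkp lie on different chromosomes: Pfkl at chr10:77986949-78009796 and Pfkp at chr13:6579874-6648724 (mm10), both on the minus strand and both protein coding. Of the other starts that RefSeq lists, the window before a start 1278 bases into Ldha held no match. That before a start 51839 bases into Pfkfb3 held ACGTG and a GC box, and that before the other Hk1 start held no match. Both other Aldoa windows held ACGTG and GC boxes, 1 of them with the AP-1 motif. Of the other 2 Eno1 windows, 1 held GC boxes and 1 no GC box, and neither held ACGTG or the AP-1 motif. A match is a description of the letters in these windows.

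Replicate 1 stood apart from replicates 2 and 3 across the table. The leading component of the variation within groups held 28.2% of it and separated the 4 samples numbered 1 from the other 8. Pearson's r between replicates of a group, across rows, averaged 0.9765 for replicates 2 and 3 and 0.9589 for pairs with replicate 1. Depth could be set relative to control replicate 1 from the steps of the lowest values and ran from 0.991 to 3.3, with all 4 samples numbered 1 between 0.991 and 1.03. Results that rest on replicate 1 are given with and without it. The agents left their usual marks: Il1b and Tnf rose with LPS by 8.20 and 6.37 log2 units, and Retnla and Arg1 rose with IL-4 by 10.09 and 4.90 (limma, log2(FPKM + 1), all with Benjamini-Hochberg adjusted p of 5.85e-07 or less). All 8 macrophage markers were expressed, their summed FPKM being 19400 to 20800 in control, 7580 to 7800 with IL-4, 16800 to 17900 with LPS and 6850 to 7150 with both. Lyz2, a gene that the study describes as repressed by IL-4, made up most of each sum. It averaged 16100, 4870, 12900 and 4300 FPKM in the same order. With IL-4 every marker but Cd68 (log2 difference -0.21, limma adjusted p = 0.14) passed as lower. B cell and red cell markers were under 1 FPKM everywhere, as were Cd3e, Cd3d and Ncr1, the 3 collagens of the fibroblast list, Flt3, Siglech, Xcr1, Cpa3 and Ms4a2, while Cd4, Zbtb46, Ccr7, Mcpt8 and Pdgfrb reached 1 FPKM in at least 1 sample. The 7 neutrophil markers in the tables, led by S100a8 and S100a9, summed to 325 to 865 FPKM in control, 218 to 406 with IL-4, 515 to 1040 with LPS and 431 to 852 with both. Their part in the results was not tested, and in bulk RNA a change in the number of a kind of cell and a change in RNA per cell cannot be told apart.

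With LPS, the RNAs of the glucose transporter, of 1 of the 3 hexokinases and of the committed step rose. The other 2 hexokinases were lower, and the 3 enzymes of the later steps did not pass the unpaired test. In limma with a replicate block, Aldoa (-0.25, adjusted p = 0.000292) and Eno1 (-0.31, 0.0101) passed as lower with LPS, and Ldha did not. Under median scaling without the block, Aldoa and Eno1 were 0.12 and 0.06. In the limma fit over all 11191 rows, 5 of the 10 genes were higher with LPS than in control (Slc2a1, Hk2, Pfkl, Pfkp and Pfkfb3), against 16.9% of all rows, and 2 were lower (Hk1 and Hk3), against 57.7%. With IL-4, 6 were higher (Slc2a1, Hk2, Hk3, Pfkp, Eno1 and Ldha), against 16% of rows, and 2 were lower (Hk1 and Pfkl), against 21%. When LPS followed IL-4, 3 were higher than with IL-4 (Slc2a1, Pfkl and Pfkp), against 15% of rows, and 4 were lower (Hk1, Hk3, Aldoa and Ldha), against 57.9%, counts that became 4 and 0 under median scaling. Set against LPS alone, the IL-4+LPS cells had 3 genes higher (Hk3, Pfkp and Eno1), against 15% of rows, and 4 lower (Slc2a1, Hk1, Pfkl and Pfkfb3), against 15.8%. The LPS response itself was smaller after IL-4 for 3 genes (Slc2a1, Hk2 and Pfkl), against 4.63% of rows with a lower interaction term, and larger for 0, against 4.58% (limma; at an unadjusted p under 0.05 there was 1, Hk3). The median log2 difference of the 10 genes was 0.44 for LPS and 0.61 for IL-4, against -0.44 and -0.05 over all rows. The low median of all rows with LPS bears on each LPS value below: scaling every sample to the same median moved the median of all rows from -0.44 to -0.14 with LPS and from -0.41 to -0.12 with LPS after IL-4, and raised the differences of rows expressed in every sample by a median of 0.34 in both. The medians for IL-4 and for IL-4+LPS against LPS moved from -0.05 to -0.03 and from -0.03 to -0.02. Under this scaling 5 of the 10 genes were higher and 1 lower with LPS. The shares of all rows called were not computed under it, so counts given under median scaling have no background beside them.

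**Figure D1:**
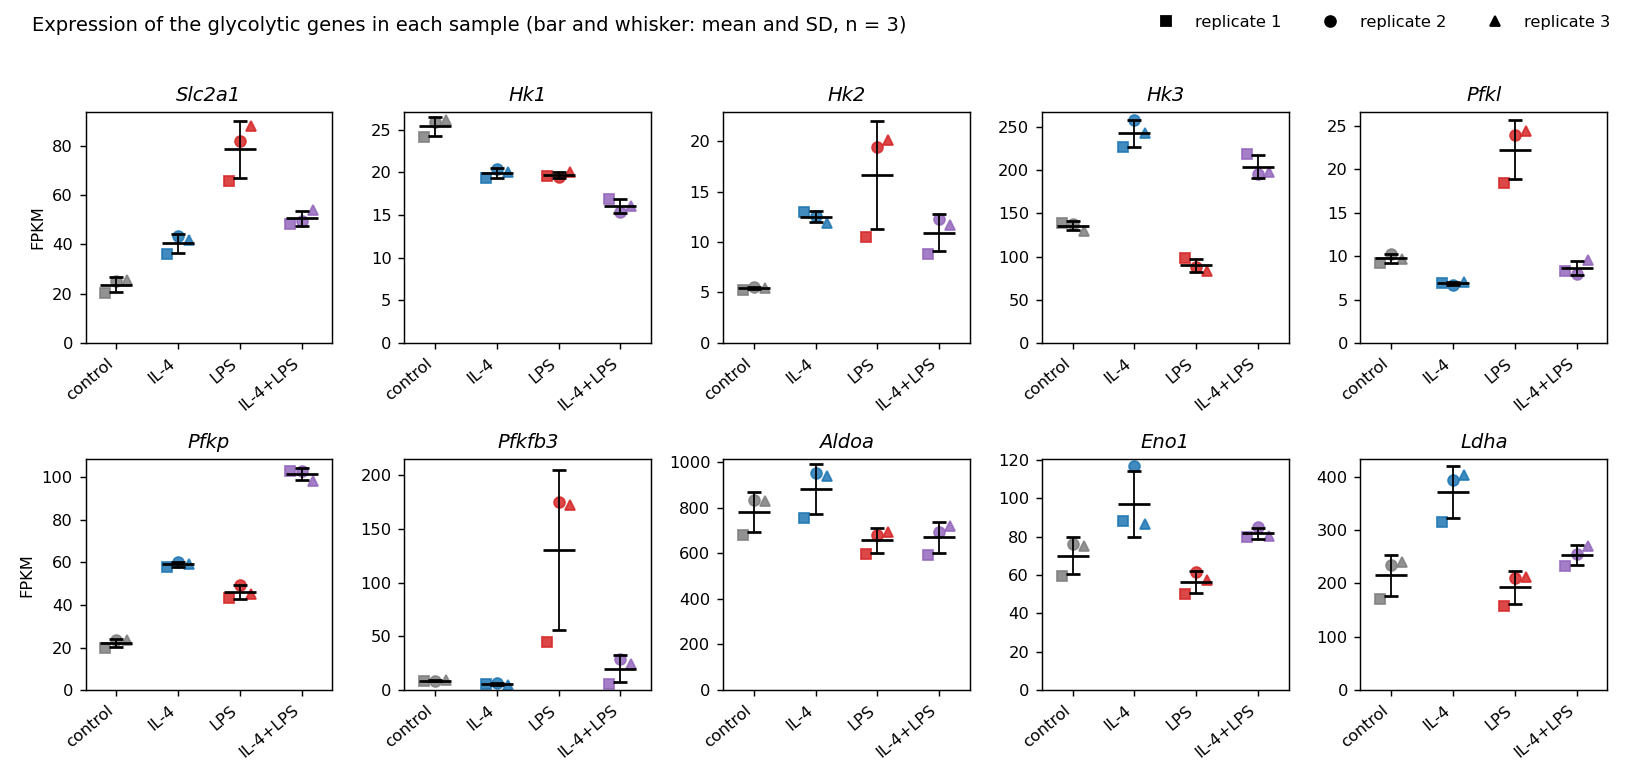
FPKM of each gene (vertical axis, linear, from 0) in every sample of the 4 groups (horizontal axis), with the mean and SD of 3 replicates and a marker shape for each replicate number. Slc2a1, Hk2, Pfkl and Pfkfb3 have their highest mean with LPS alone, Hk3, Aldoa, Eno1 and Ldha with IL-4 alone, Pfkp with both and Hk1 in control, and LPS replicate 1 is well below the other LPS samples for Hk2 and Pfkfb3.

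Slc2a1 encodes GLUT1, the main basal glucose transporter of many cells, and rose with either agent. Its FPKM were 20.3, 25.2 and 25.5 in control, 36.2, 43.6 and 41.8 with IL-4, 65.7, 81.9 and 88.1 with LPS, and 48.3, 49.6 and 54.0 with both (replicates 1 to 3). The order of the groups was control, IL-4, IL-4+LPS and LPS, and no group overlapped its neighbour. The log2 difference from control was 1.69 ± 0.12 with LPS (SE, adjusted p = 7.06e-07, limma with Benjamini-Hochberg adjustment, as in all that follows) and 0.75 ± 0.12 with IL-4 (adjusted p = 0.000963). After IL-4, LPS added 0.32 ± 0.12 (adjusted p = 0.0389), so that the response was 1.37 lower on the log2 scale than without IL-4 (interaction -1.37 ± 0.18, adjusted p = 0.00108). Slc2a1 was also lower with both agents than with LPS alone, by 0.61 ± 0.12 on the log2 scale (difference -0.61, adjusted p = 0.00379). The small rise after IL-4 missed the threshold when IL-4 replicate 1 (0.24, adjusted p = 0.134) or 3 (0.34, 0.0621), or IL-4+LPS replicate 2 (0.33, 0.0686) or 3 (0.27, 0.118), was left out, without the filter on low values (0.32, 0.092) and by a Tukey test of the single gene.

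The 3 hexokinases went different ways. Hk1, the broadly expressed isoform, measured 24.1, 25.9 and 26.1 FPKM in control, 19.3, 20.4 and 20.0 with IL-4, 19.6, 19.4 and 20.0 with LPS, and 16.9, 15.3 and 16 with both. It was highest in control and lowest with both, and the IL-4 and LPS groups overlapped. Its log2 difference was -0.33 ± 0.06 with IL-4 (adjusted p = 0.00153) and -0.28 ± 0.06 between IL-4+LPS and LPS (adjusted p = 0.00517). The LPS differences of Hk1, -0.35 ± 0.06 without IL-4 (adjusted p = 0.000323) and -0.29 ± 0.06 after it (adjusted p = 0.0012), were close to the median of all rows and turned to 0.01 and 0.05 under median scaling. The second was -0.08 (adjusted p = 0.225) under quantile normalization.

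Hk2, the inducible isoform that binds mitochondria, rose with either agent, and LPS after IL-4 gave no further rise that passed the test. Its FPKM were 5.29, 5.53 and 5.49 in control, 13.0, 12.6 and 11.9 with IL-4, 10.5, 19.4 and 20.1 with LPS, and 8.82, 12.3 and 11.7 with both. Every treated sample was above every control sample, and LPS replicate 1 lay below every IL-4 sample while the other 2 LPS samples were the highest of all. The log2 difference from control was 1.40 ± 0.20 with LPS (adjusted p = 9.83e-05) and 1.07 ± 0.20 with IL-4 (adjusted p = 0.00232). After IL-4 the LPS difference was -0.19 ± 0.20 (95% confidence interval -0.64 to 0.26, adjusted p = 0.422; 0.15 under median scaling), and the interaction was -1.59 ± 0.29 (adjusted p = 0.00653). With replicates 2 and 3 only, the LPS difference was 1.67 (adjusted p = 6.64e-07) and the interaction -1.70 (9.44e-05). The difference between IL-4+LPS and LPS was -0.52 ± 0.20 (adjusted p = 0.0768) with all samples, and passed with replicates 2 and 3 only (-0.67, 0.000139) and without LPS replicate 1 (-0.81, 0.00086).

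Hk3, the isoform found mostly in myeloid cells, was the most abundant hexokinase RNA in every sample and moved opposite to Hk2 with LPS. Its FPKM were 139, 138 and 130 in control, 227, 258 and 243 with IL-4, 97.9, 87.5 and 83.7 with LPS, and 219, 195 and 198 with both. The 4 groups did not overlap, and both groups given IL-4 were above both groups that were not. The log2 difference was 0.83 ± 0.08 with IL-4 (adjusted p = 2.19e-05) and 1.18 ± 0.08 between IL-4+LPS and LPS (adjusted p = 2.05e-06). LPS lowered it by 0.59 on the log2 scale without IL-4 (-0.59 ± 0.08, adjusted p = 4.73e-05; -0.23, 0.0152 under median scaling). After IL-4 the LPS difference was -0.25 ± 0.08 (adjusted p = 0.0149), which turned to 0.11 under median scaling and missed the threshold without IL-4 replicate 2 (-0.20, 0.0604) or IL-4+LPS replicate 2 (-0.22, 0.053). The interaction was 0.35 ± 0.11 (adjusted p = 0.0795), and passed without LPS replicate 1 (0.41, 0.0337) and with replicates 2 and 3 only (0.30, 0.0254). The summed neutrophil markers overlapped between IL-4 (218 to 406 FPKM) and control (325 to 865), and their part in the Hk3 levels was not tested.

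Shares within a sample do not depend on scaling between samples. Hk3 made up 81.5% ± 1.05 of the summed FPKM of the 3 hexokinases in control, 88.2% ± 0.576 with IL-4, 71.1% ± 4.75 with LPS and 88.3% ± 1.05 with both (SD, n = 3). The share of Hk2 was 3.27% ± 0.131, 4.56% ± 0.391, 13.3% ± 4.42 and 4.77% ± 1.02 in the same order. In LPS replicate 1 the Hk2 share was 8.19%, against 15.3% and 16.3% in the other LPS samples, and all 3 were above every other sample. The Hk2 share differed between LPS and control, IL-4 and control, and IL-4+LPS and LPS with an exact two-sided permutation p of 0.1 each, the smallest that 3 against 3 can give, and between IL-4+LPS and IL-4 with p = 0.9. The summed hexokinase FPKM were 167 ± 4.42 in control, 275 ± 15.7 with IL-4, 126 ± 2.09 with LPS and 231 ± 11.7 with both, so the total followed Hk3.

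**Figure D2:**
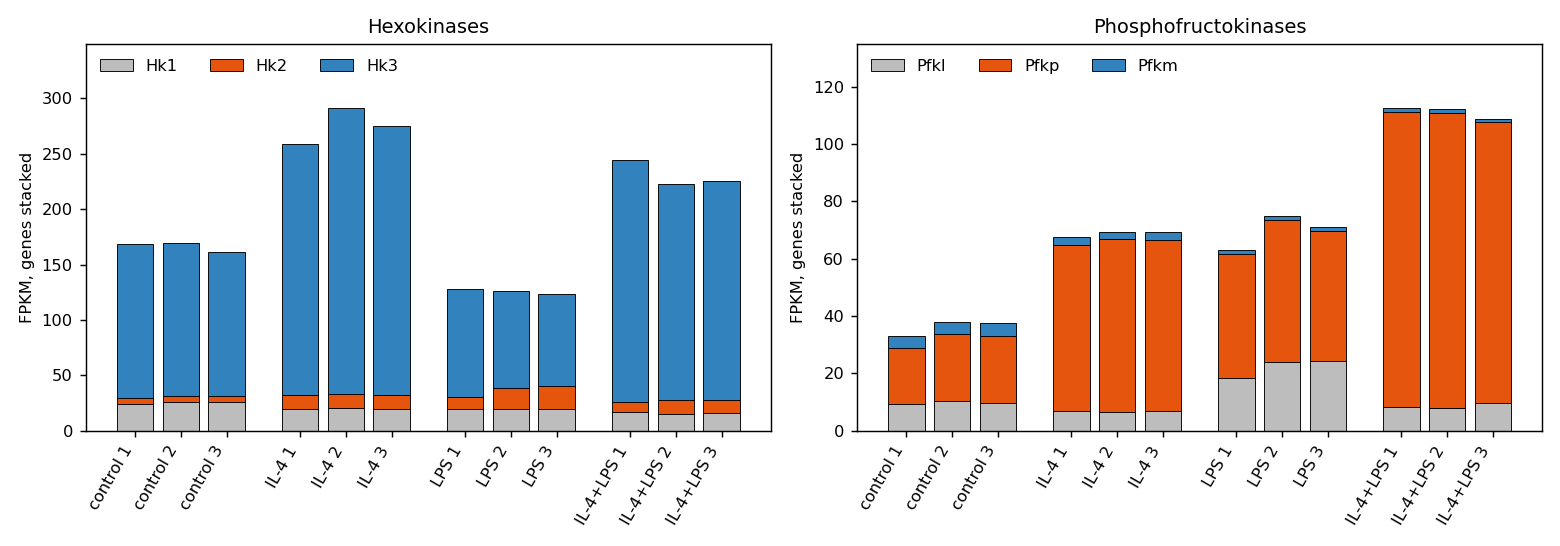
Stacked FPKM (vertical axes, linear, from 0) of Hk1, Hk2 and Hk3 (left) and of Pfkl, Pfkp and Pfkm (right) in each of the 12 samples (horizontal axis, group and replicate number). Hk3 fills most of every hexokinase bar, and Pfkp fills most of the phosphofructokinase bars, most of all in the samples given IL-4.

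Of the phosphofructokinases, Pfkl (the liver type) and Pfkp (the platelet type) both rose with LPS and moved in opposite directions with IL-4. Pfkl measured 9.2, 10.3 and 9.71 FPKM in control, 6.93, 6.71 and 6.99 with IL-4, 18.4, 24.0 and 24.4 with LPS, and 8.31, 7.96 and 9.54 with both. The LPS samples were the highest, the IL-4 samples the lowest, and the IL-4+LPS and control samples overlapped. The log2 difference of Pfkl was 1.10 ± 0.11 with LPS (adjusted p = 4.80e-06), -0.45 ± 0.11 with IL-4 (adjusted p = 0.00816) and -1.27 ± 0.11 between IL-4+LPS and LPS (adjusted p = 1.05e-05). After IL-4, LPS raised it by 0.28 ± 0.11 (adjusted p = 0.0337), a smaller response than without IL-4 (interaction -0.82 ± 0.15, adjusted p = 0.00706). That small rise missed the threshold without IL-4 replicate 1 (0.29, 0.0627), 2 (0.27, 0.0835) or 3 (0.29, 0.0646), without IL-4+LPS replicate 3 (0.21, 0.127), without the filter on low values (0.28, 0.0676) and by the Tukey test.

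Pfkp measured 19.8, 23.4 and 23.3 FPKM in control, 57.8, 60.2 and 59.4 with IL-4, 43.2, 49.5 and 45.3 with LPS, and 103, 103 and 98.1 with both. No groups overlapped, and the samples given both agents were the highest. The log2 difference was 1.38 ± 0.08 with IL-4 (adjusted p = 5.78e-07), 1.02 ± 0.08 with LPS (adjusted p = 7.21e-07), 0.77 ± 0.08 for LPS after IL-4 (adjusted p = 6.99e-06) and 1.12 ± 0.08 between IL-4+LPS and LPS (adjusted p = 2.27e-06). Pfkp was the only one of the 10 genes that passed as higher in all 4 comparisons. The share of all rows that did so was not computed. Its interaction was -0.26 ± 0.11 (95% confidence interval -0.49 to -0.02, adjusted p = 0.172) with all samples. It passed with replicates 2 and 3 only (-0.25, 0.046) and under quantile normalization (-0.43, 0.0216). In mean FPKM, LPS added 42.2 after IL-4 and 23.9 without it, so the direction of this difference depends on the scale.

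The ratio of Pfkp to Pfkl within a sample was 2.27 ± 0.124 in control and 2.09 ± 0.247 with LPS, and 8.60 ± 0.328 with IL-4 and 11.9 ± 1.38 with both (SD, n = 3). The 6 samples given IL-4 held ratios from 8.33 to 12.9, and the 6 others from 1.86 to 2.40. The IL-4 and IL-4+LPS ratios differed from those of control and LPS with an exact permutation p of 0.1, the smallest possible, while LPS and control gave p = 0.3. With Pfkm, the muscle type, included, Pfkp made up 61.1% ± 1.07 of phosphofructokinase FPKM in control, 86.0% ± 0.792 with IL-4, 66.2% ± 2.27 with LPS and 91.2% ± 0.857 with both. The summed FPKM of the 3 were 36.2 ± 2.75 in control, 68.7 ± 0.92 with IL-4, 69.6 ± 5.97 with LPS and 111 ± 2.0 with both.

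Pfkfb3 encodes the PFKFB isoform with the strongest kinase bias, which makes the activator of phosphofructokinase, and it had the widest range of the 10 genes. Its FPKM were 8.73, 8.17 and 8.96 in control, 5.59, 6.37 and 4.93 with IL-4, 44.7, 175 and 172 with LPS, and 5.47, 29.4 and 24.3 with both. All 3 LPS samples were above all others, but LPS replicate 1 was far below the other 2, and in the IL-4+LPS group replicate 1 was at the IL-4 level while the other 2 were above every control sample. The log2 difference was 3.54 ± 0.60 with LPS (adjusted p = 0.000294) and -2.71 ± 0.60 between IL-4+LPS and LPS (adjusted p = 0.00608). Without LPS replicate 1 these were 4.18 (adjusted p = 6.23e-05) and -3.35 (0.00124), and without IL-4+LPS replicate 1 the second was -2.01 (0.0111). With replicates 2 and 3 only they were 4.19 (5e-07) and -2.65 (1.74e-05). The second missed the threshold when only the 2 groups compared were fitted (-2.71, 0.0591).

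The other Pfkfb3 comparisons missed the threshold, and their calls changed with the samples and the settings. After IL-4 the LPS difference was 1.37 ± 0.60 (adjusted p = 0.059), and it passed without IL-4+LPS replicate 1 (2.07, 0.0034), without LPS replicate 1 (1.37, 0.0231) and with replicates 2 and 3 only (2.07, 1.11e-05). With all samples it passed under median scaling (1.70, 0.0348) and quantile normalization (1.66, 0.0273). The interaction was -2.17 ± 0.84 (adjusted p = 0.145), and it passed without LPS replicate 1 (-2.81, 0.0325) and with replicates 2 and 3 only (-2.12, 0.000591). The IL-4 difference was -0.54 ± 0.60 (adjusted p = 0.516), with no overlap between the IL-4 and control samples, and it passed with replicates 2 and 3 only (-0.53, 0.0128) and when only the 2 groups compared were fitted (-0.54, 0.00869). By replicate number, which is not known to mark pairs, the FPKM ratio of LPS to control was 5.12, 21.4 and 19.2. That of IL-4+LPS to IL-4 was 0.979, 4.61 and 4.93. The ratio of IL-4+LPS to LPS varied less, at 0.122, 0.168 and 0.142. The 4 samples numbered 1 were also the 4 shallowest. Il1b, too, was lowest in replicate 1 with LPS (1190 FPKM, against 2250 and 2310) and with both (478, against 2320 and 2500). Tnf in replicates 1 to 3 was 1310, 1420 and 1360 with LPS, and 1390, 2360 and 2350 with both. The neutrophil marker S100a8 was lowest in replicate 1 of every group. The part of depth, of the strength of the LPS response or of other cells in the Pfkfb3 values was not tested.

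**Figure D3:**
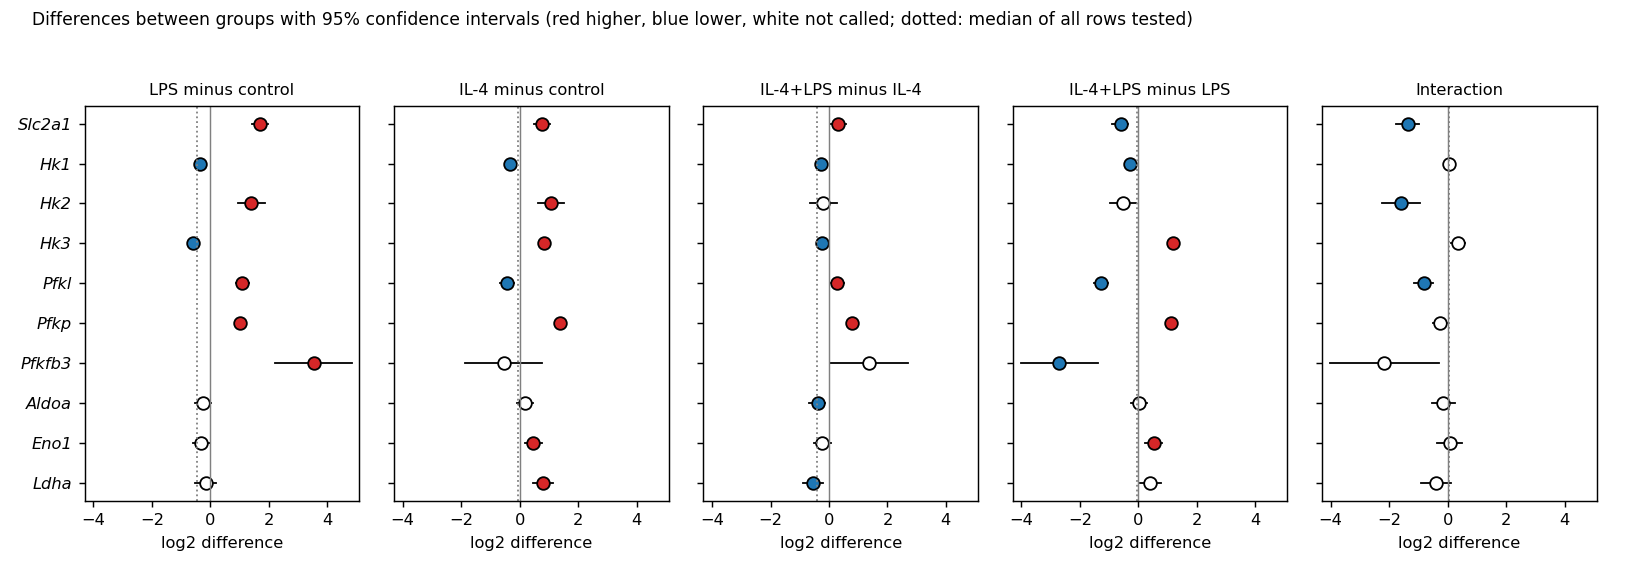
Log2 difference in log2(FPKM + 1) (horizontal axes) of each gene (vertical axis) in the 4 comparisons and the interaction, with 95% confidence intervals from limma, filled red or blue where the adjusted p was under the threshold of 0.05 and the gene was higher or lower. The solid line is 0 and the dotted line the median of all rows tested (-0.44 with LPS, -0.41 for LPS after IL-4), and the interval of Pfkfb3 is the widest in every panel.

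Aldoa, Eno1 and Ldha, which act after the committed step, were abundant in all groups, and Eno1 and Ldha rose with IL-4. Aldoa encodes the aldolase that splits fructose 1,6-bisphosphate, and measured 678, 835 and 830 FPKM in control, 754, 950 and 940 with IL-4, 595, 682 and 694 with LPS, and 592, 695 and 721 with both. Each group overlapped its neighbour in the order of the levels, and in each group replicate 1 was the lowest. The log2 difference was -0.25 ± 0.12 with LPS (adjusted p = 0.0936; 0.12 under median scaling), 0.17 ± 0.12 with IL-4 (adjusted p = 0.306) and 0.02 ± 0.12 between IL-4+LPS and LPS (95% confidence interval -0.25 to 0.30, adjusted p = 0.91). The LPS value passed without control replicate 1 (-0.34, 0.0308), with replicates 2 and 3 only (-0.28, 0.00036) and under quantile normalization (-0.54, 0.000879), and the IL-4 value passed with replicates 2 and 3 only (0.18, 0.00605). LPS after IL-4 lowered Aldoa by 0.39 on the log2 scale (-0.39 ± 0.12, adjusted p = 0.0145), a value that was -0.03 under median scaling and missed the threshold without IL-4 replicate 2 (-0.34, 0.0562), IL-4 replicate 3 (-0.34, 0.0554) or IL-4+LPS replicate 1 (-0.31, 0.0555), or by a Tukey test of the single gene. Of the 50-base words of its longest transcript, 13.5% occur in other genes, led by the retrogene Aldoart1.

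Ldha encodes the muscle-type subunit of lactate dehydrogenase, the form that favours lactate, and its highest level came with IL-4. It measured 170, 234 and 241 FPKM in control, 315, 394 and 404 with IL-4, 157, 210 and 212 with LPS, and 233, 255 and 271 with both. The IL-4 samples were above all others, while LPS overlapped control and control overlapped IL-4+LPS. The log2 difference was 0.79 ± 0.16 with IL-4 (adjusted p = 0.00336) and -0.15 ± 0.16 with LPS (95% confidence interval -0.51 to 0.21, adjusted p = 0.414; 0.22 under median scaling). LPS after IL-4 gave -0.54 ± 0.16 (adjusted p = 0.0109), which lost the call but not its sign under median scaling (-0.18, 0.355) and by the Tukey test, and IL-4+LPS against LPS gave 0.40 ± 0.16 (adjusted p = 0.0871). The last passed without control replicate 1 (0.40, 0.0461) and with replicates 2 and 3 only (0.32, 0.00129). The interaction was -0.39 ± 0.23 (adjusted p = 0.34), and passed with replicates 2 and 3 only (-0.43, 0.00359). Other genes hold 16.6% of the 50-base words of Ldha.

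Eno1 encodes the enolase of most tissues, and its row is uncertain. It measured 59.3, 76.2 and 75.0 FPKM in control, 88.1, 117 and 86.5 with IL-4, 50.3, 61.5 and 57.6 with LPS, and 79.8, 84.8 and 80.5 with both. The IL-4 and IL-4+LPS samples were above the control and LPS samples, and the latter groups overlapped. The log2 difference was 0.46 ± 0.13 with IL-4 (adjusted p = 0.0204) and 0.53 ± 0.13 between IL-4+LPS and LPS (adjusted p = 0.0119). The IL-4 call was lost without control replicate 1 (0.34, 0.0748) or IL-4 replicate 2 (0.32, 0.0716), without the filter on low values (0.46, 0.054) and when only the 2 groups compared were fitted (0.46, 0.0645). The LPS difference was -0.31 ± 0.13 (adjusted p = 0.0577; 0.06 under median scaling) and passed without control replicate 1 (-0.42, 0.0155), without IL-4 replicate 2 (-0.31, 0.0255), with replicates 2 and 3 only (-0.34, 0.0451) and under quantile normalization (-0.39, 0.0115). The difference for LPS after IL-4 was -0.23 ± 0.13 (adjusted p = 0.133), which was 0.13 under median scaling and passed under quantile normalization (-0.31, 0.0393).

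Other genes held 72.2% of the 50-base words of Eno1, nearly all of them in its retrogene copy Eno1b, which the tables list as Gm5506. One of the 2 Gm5506 rows lies inside Eno1 itself, at chr4:150237324-150248873 (mm10), within the Eno1 row at chr4:150237197-150248873. The Eno1 row held 29.4% ± 1.96 of the FPKM summed over the 3 rows in control, 28.5% ± 4.36 with IL-4, 28.2% ± 1.20 with LPS and 31.2% ± 2.08 with both. The summed FPKM were 238 ± 17.0 in control, 342 ± 28.5 with IL-4, 200 ± 13.5 with LPS and 262 ± 9.89 with both (SD, n = 3), and this sum was added after the rows were seen. On the sum, IL-4 gave 0.52 (adjusted p = 0.000829), LPS -0.25 (0.018), LPS after IL-4 -0.38 (0.00203) and IL-4+LPS against LPS 0.39 (0.00483), so each of the 4 comparisons passed. How the reads were divided among these rows was not given in the sources used here.

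By level per length in control, Aldoa (781 ± 89.6 FPKM), Ldha (215 ± 39.1) and Hk3 (136 ± 5.08) led, and Hk2 (5.44 ± 0.125), Pfkfb3 (8.62 ± 0.403) and Pfkl (9.73 ± 0.547) were the lowest (SD, n = 3). Pfkfb3, Slc2a1, Hk2 and Pfkl had the 4 largest log2 differences with LPS, and 3 of them had these 3 lowest levels. Over the 12 samples, the closest pair of the 10 genes was Eno1 and Ldha, with a root mean square difference of 0.182 between their centred log2 values, and Slc2a1 and Hk2 differed by 0.285. The farthest pair was Hk3 and Pfkfb3, at 2.18.

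Among all rows, those nearest in pattern to Pfkfb3 over the 12 samples were Jdp2, an AP-1 family repressor (root mean square difference 0.464), Il4ra, the IL-4 receptor alpha chain (0.472), and Sh3bgrl2 (0.498), against a median of 1.90 over all rows. Il4ra averaged 24.5 FPKM in control, 16.4 with IL-4, 180 with LPS and 32.4 with both. Those nearest to Pfkp were Zyx, which encodes the focal adhesion protein zyxin (0.0885), Lrrc8b, a volume-regulated anion channel subunit (0.185), and Hvcn1, the voltage-gated proton channel (0.188), against a median of 0.988. Zyx averaged 75.9 FPKM in control, 190 with IL-4, 155 with LPS and 336 with both, the same order of groups as Pfkp.

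The rest of the pathway was read from 4 lists of 55 genes, of which 46 rows passed the filter on low values. For all lists, the shares of all rows are from the fit without median scaling, also where counts under median scaling follow. With LPS 3 of the 46 rows were higher and 34 lower (6.52% and 73.9%, against the 16.9% and 57.7% of all rows given above), or 8 and 18 under median scaling. With IL-4 18 were higher and 10 lower (39.1% and 21.7%, against 16% and 21% of all rows), so the share called lower was near that of all rows. For LPS after IL-4 the counts were 2 and 33 (4.35% and 71.7%, against 15% and 57.9%), or 8 and 16 under median scaling. For IL-4+LPS against LPS they were 17 and 4 (37% and 8.7%, against 15% and 15.8%). The median log2 difference of the 46 rows was -0.45 with LPS and 0.19 with IL-4, against -0.44 and -0.05 over all rows.

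Of 25 tested rows of other glycolysis genes, 2 rose with LPS and 18 were lower (8% and 72%, against 16.9% and 57.7% of all rows), or 6 and 9 under median scaling. The 2 that rose were both membrane transporters: Slc2a6, which encodes the intracellular sugar transporter GLUT6, and Slc16a3, which encodes the lactate exporter MCT4. Slc2a6 went from 8.47 ± 0.541 FPKM in control to 300 ± 56.7 with LPS (log2 difference 4.97 ± 0.20, adjusted p = 1.26e-08) and from 18.5 ± 2.76 with IL-4 to 468 ± 123 with both (4.56 ± 0.20, adjusted p = 2.39e-08), and its interaction was -0.41 ± 0.28 (adjusted p = 0.43). Slc16a3 rose from 15.5 ± 1.19 to 49.8 ± 7.46 FPKM with LPS (1.62 ± 0.14, adjusted p = 1.90e-06), but measured 11.1 ± 0.708 with IL-4 and 13.0 ± 2.26 with both. Its interaction of -1.41 ± 0.19 (adjusted p = 0.00151) was near that of Slc2a1. Slc16a1, which encodes the related transporter MCT1, measured 2.49 ± 0.229 FPKM in control, 10.5 ± 0.635 with IL-4, 2.98 ± 0.944 with LPS and 2.59 ± 0.0932 with both, so it rose with IL-4 (1.73 ± 0.15, adjusted p = 1.40e-05) and fell when LPS followed (-1.68 ± 0.15, adjusted p = 3.85e-06).

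The isoforms Pfkfb2, Pfkfb4 and Pfkm fell with LPS, while Pfkfb3, Pfkl and Pfkp rose. Pfkfb2 had a log2 difference of -1.68 ± 0.10 with LPS (adjusted p = 1.20e-07) and -1.42 with LPS after IL-4 (4.42e-07), and Pfkfb4 of -1.61 ± 0.23 (8.10e-05) and -1.51 (0.000142). Pfkm fell by 1.16 ± 0.09 with LPS (adjusted p = 1.36e-06) and Bpgm, which makes 2,3-bisphosphoglycerate, fell by 1.30 ± 0.10 (1.09e-06). Among the most abundant of the list, Pkm (pyruvate kinase) averaged 650 FPKM in control, 743 with IL-4, 453 with LPS and 531 with both, and Tpi1 (triosephosphate isomerase) 160, 157, 124 and 100. Pkm had a log2 difference of -0.51 ± 0.11 with LPS (adjusted p = 0.00195) and Tpi1 of -0.37 ± 0.13 (adjusted p = 0.0256), values near the median of all rows.

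**Figure D4:**
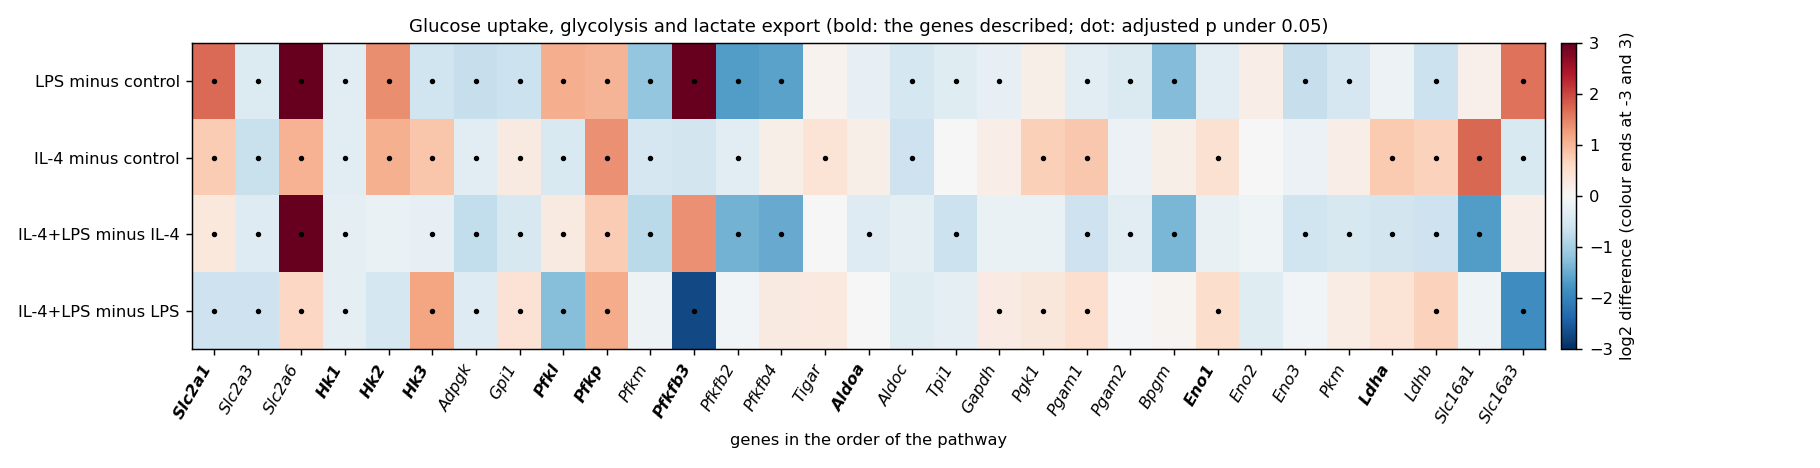
Log2 differences (colour, ending at -3 and 3) of genes from glucose uptake to lactate export (horizontal axis, in pathway order) in the 4 comparisons (vertical axis), with a dot where the adjusted p was under the threshold of 0.05. In the LPS row red fields stand at Slc2a1, Slc2a6, Hk2, Pfkl, Pfkp, Pfkfb3 and Slc16a3, and most of the fields from Aldoa to Ldhb are pale or blue.

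Of 11 tested genes for the entry of pyruvate into mitochondria, 1 rose and 9 were lower with LPS (9.09% and 81.8%, against 16.9% and 57.7% of all rows), or 1 and 4 under median scaling. With IL-4 5 rose and 2 fell (45.5% and 18.2%, against 16% and 21%). Dld, the dihydrolipoamide dehydrogenase of the pyruvate dehydrogenase complex, was the one that rose with LPS (0.55 ± 0.09, adjusted p = 0.000175). Pdk2, a kinase that inactivates pyruvate dehydrogenase, fell by 2.28 ± 0.11 on the log2 scale with LPS (adjusted p = 3.47e-08), and Pdp1, the phosphatase that reactivates it, fell by 2.05 ± 0.17 (adjusted p = 1.52e-06). With both agents Pdk2 and Pdp1 averaged 0.609 and 1.96 FPKM, against 4.43 and 14.6 with IL-4. Pdk1 had log2 differences of -0.93 ± 0.09 with LPS (adjusted p = 3.52e-06) and -1.18 ± 0.09 with LPS after IL-4 (adjusted p = 7.80e-07). The pyruvate carriers Mpc1 and Mpc2 were higher with both agents than with LPS alone, each by 0.52 (adjusted p = 0.00413 and 0.0156), as was Pdhb, a subunit of pyruvate dehydrogenase, by 0.48 (0.00177).

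Of the 7 genes of the pentose phosphate pathway, which branches off after hexokinase, 0 rose and 5 were lower with LPS (limma; 0 rose at an unadjusted p under 0.05; 71.4% were lower, against 57.7% of all rows), or 1 and 3 under median scaling. With IL-4 3 rose and 2 fell (42.9% and 28.6%, against 16% and 21%). Tkt (transketolase) was higher with IL-4 by 0.72 ± 0.07 (adjusted p = 2.42e-05) and higher with both agents than with LPS alone by 0.82 ± 0.07 (1.03e-05). G6pdx, the entry enzyme, fell by 0.39 ± 0.13 with IL-4 (adjusted p = 0.0342), and Taldo1 (transaldolase) fell by 0.24 ± 0.07 (0.0184), while Pgd measured -0.03 ± 0.11 (0.888). Only 3 of the 7 gluconeogenesis genes passed the filter. Of these Pck2, the mitochondrial phosphoenolpyruvate carboxykinase, fell by 1.99 ± 0.17 with LPS (adjusted p = 2.32e-06) and G6pc3 by 0.99 ± 0.12 (2.17e-05), and G6pc3 was higher with IL-4 by 0.39 ± 0.12 (0.0249).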

How the data were processed

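The authors aligned paired reads of poly-A libraries to mm10 with TopHat2 2.0.7 and computed the deposited FPKM values with Cufflinks 2.0.2, as named in the submitters' processing notes; the annotation was not given in the sources used here. FPKM hold no counts, so depth is known only as a ratio between samples (0.991 to 3.3, all 66 pairs within 0.1 log2 units of one set of depths), and no counting interval was computed. FPKM totals were 457583 to 495025 per sample.

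Rows with at least 1 FPKM in at least 1 sample were kept. log2(FPKM + 1) was fitted in limma 3.58.1 (R 4.3.3) with 1 mean for each of the 4 groups, all 12 samples and an intensity trend, and p-values were adjusted by Benjamini-Hochberg within each comparison (threshold 0.05). On this scale a fold change understates that of low genes. The interaction subtracts the LPS difference in cells without IL-4 from that in IL-4-pretreated cells. The fit was tested on simulated data. Ratios within samples were compared by exact two-sided permutation tests. Promoters and shares were computed with Python 3.11.15. Shared sequence is the share of the 50-base words of a gene's longest GENCODE transcript that occur in transcripts of other genes.

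The genes and the pathway and marker lists were chosen with earlier results of these data known. Named from the lists were the 4 genes with the largest mean FPKM and any called gene changed at least 2-fold, and further called genes were named after their values were seen. Nearest patterns were named for the 2 genes with the widest range of group means. Alternatives were another pseudocount, other filters, median scaling, quantile normalization, no trend, only the compared groups, a replicate block, replicates 2 and 3 only, a per-gene Tukey test, and leaving out each sample. Replicates of a group are separate animals, and the labels do not say that a number is shared by 1 animal across groups.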

Additional observations from a re-analysis of the deposited data

Results flagged for a closer look

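The LPS response differed with prior IL-4 by a test of the difference itself (limma interaction, Benjamini-Hochberg adjusted) for 3 of the 10 genes. The response after IL-4 minus that without it was -1.59 on the log2 scale for Hk2, -1.37 for Slc2a1 and -0.82 for Pfkl, and each stayed past the threshold when any 1 sample was left out and when the replicates numbered 1 were left out together. A test for a single far sample was not run on these groups of 3.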

How the results depend on the processing

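Limits are 3 replicates a group, animals from an unstated mix of experiments, and FPKM scaled to each library's total. Median scaling turned the LPS difference of Aldoa (0.12), Eno1 (0.06), Hk1 (0.01) and Ldha (0.22), and that after IL-4 of Eno1 (0.13), Hk1 (0.05), Hk2 (0.15) and Hk3 (0.11); quantile normalization turned Hk2 after IL-4 (0.12). Leaving out 1 sample turned values near 0: Aldoa between IL-4+LPS and LPS (-0.04 to -0.00) and the Eno1 interaction (-0.01 to 0.21), which was also -0.12 on the Eno1 and Gm5506 sum.

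With LPS, the 2 genes called lower became 1 under median scaling, 4 under quantile normalization, 4 with a replicate block, 5 with replicates 2 and 3 only, and 2 to 4 when 1 sample was left out. The 3 listed pathway rows called higher became 8, 8 and 5 (median scaling, quantile normalization, replicates 2 and 3 only; 3 to 5 with 1 sample out), and the 34 called lower became 18 under median scaling. With IL-4, the 10 listed rows called lower became 5 to 11 with 1 sample out. For LPS after IL-4, the 3 genes called higher became 1 without the filter, 1 by the Tukey test and 1 to 4 with 1 sample out, and the 4 called lower became 0 under median scaling, 2 by the Tukey test and 2 to 4. The 2 listed rows called higher became 1 with a stricter filter, 8 under median scaling, 5 under quantile normalization, 1 by the Tukey test and 1 to 2, and the 33 called lower became 16 under median scaling. For IL-4+LPS against LPS, the 4 listed rows called lower became 11 with replicates 2 and 3 only and 4 to 8 with 1 sample out. For the interaction, the count of genes called higher went from 0 to 1 with the replicate block, 1 with replicates 2 and 3 only and 0 to 1 with 1 sample out; that called lower went from 3 to 6 with replicates 2 and 3 only; and the listed rows went to 2 and 4 higher (0 to 1 with 1 sample out) and 7 and 7 lower with the block and with replicates 2 and 3 only. The causes were not tested.

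The labels give no shared animal or day for a replicate number, so the numbers were not taken as pairs. Deviations of same-numbered samples had a mean r of 0.124 (0.00236 to 0.386, 11 of 18 pairs over 0.1), and 9 of 12 samples were closest to their own number, a hint of pairing from the data and not from the design. The replicate block brought 9 of the 50 differences of the 10 genes past the threshold and took none below it (limma, adjusted p). With LPS these were Aldoa (-0.25, 0.000292) and Eno1 (-0.31, 0.0101), and with IL-4 Aldoa (0.17, 0.00556). For LPS after IL-4 they were Eno1 (-0.23, 0.0332) and Pfkfb3 (1.37, 0.0242). Between IL-4+LPS and LPS they were Hk2 (-0.52, 0.0367) and Ldha (0.40, 0.00109). The interactions were those of Hk3 (0.35, 0.0397) and Ldha (-0.39, 0.017).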
